A study of Mus musculus with 24 samples.

Results

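Tristetraprolin and the regnases are zinc-finger proteins that bind messenger RNAs and shorten their life, and 7 mouse genes encode the 2 families: Zfp36 (tristetraprolin), Zfp36l1, Zfp36l2, Zc3h12a (regnase-1), Zc3h12b, Zc3h12c and Zc3h12d. The genes were taken by name from the 55536 genes of the expression table, and all 7 have a row in it. Liver RNA was sequenced from wild-type Balb/c mice of 6 weeks. The 8 control libraries (Con) came from healthy mice, 8 libraries (AP) from mice with acute pancreatitis and 8 libraries (SAP) from mice with severe acute pancreatitis. The means of inducing pancreatitis and the sampling time do not appear in the labels. Nor do the labels say whether each library came from a different mouse, so the spread between libraries may be partly technical.

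Tristetraprolin and its relatives Zfp36l1 and Zfp36l2 recognise AU-rich elements in 3' untranslated regions and recruit the CCR4-NOT complex, which removes the poly(A) tail before the message is decapped and degraded. Regnase-1 is an endonuclease that cuts stem-loops in the 3' untranslated regions of inflammatory messages, its own included, during translation. Both families restrain cytokine output. Their genes are themselves induced early by inflammatory signals, and kinases, phosphatases and proteases set how active or stable the proteins are. In hepatocytes Zfp36l1 is known to act on bile acid synthesis messages.

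AU-rich sites were read from GENCODE M21 transcripts (build GRCm38), 1 per gene, to show what tristetraprolin can bind in messages that rose and fell and in its own family. The heptamer TATTTAT, on the transcript strand and with overlapping matches counted, lies in 26.7% of the 20594 untranslated regions searched. The shorter core ATTTA lies in 63.7% and the nonamer TTATTTATT in 7.25%. Each line gives 30 bases written as DNA, 5′ to 3′, with every heptamer in capitals. Zfp36, Zfp36l1 and Zfp36l2 represent the family itself, Zc3h12c is the regnase gene with heptamers, and the other lines are target messages.
Zfp36: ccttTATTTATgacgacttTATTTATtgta
Zfp36l1: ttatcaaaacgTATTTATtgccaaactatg
Zfp36l2: actatttaactTATTTATtatcttgtgaaa
Zc3h12c: gctataatcatTATTTATaggaacaaagat
Tnf: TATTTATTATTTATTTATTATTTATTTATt
Ier3: taattaaTATTTATgTATTTATgtatatcc
Fgf21: TATTTATtacgggTATTTATctTATTTATt
Cyp7a1: ataTATTTATatataaattaTATTTATctt

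The Zfp36 site lies at chr7:28376958-28376987, that of Zfp36l1 at chr12:80108421-80108450, that of Zfp36l2 at chr17:84184913-84184942 and that of Zc3h12c at chr9:52114861-52114890, all on the minus strand. The target sites lie at chr17:35199677-35199706 (Tnf, minus), chr17:35822485-35822514 (Ier3, plus), chr7:45613949-45613978 (Fgf21, minus) and chr4:6266965-6266994 (Cyp7a1, minus). Zfp36 holds 3 heptamers in 774 bases, which 1.28% of untranslated regions of like length (0.8 to 1.25 times) match or exceed. Zfp36l1 holds 3 in 1835 bases (4.11% of like length hold as many) and Zfp36l2 holds 3 in 1822 bases (4.08%). Zc3h12c holds 2 in 4062 bases, as do 30.4% of its like. The regions searched for Zc3h12a, Zc3h12b and Zc3h12d hold no heptamer. Regnase stem-loops were not searched.

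Levels are TPM, an abundance scaled to transcript length and to about the same total in each library, so levels of different genes can be set side by side. TPM keeps no read depth, and the depth of the libraries is unknown. Differences were taken between values of log2(TPM + 1), so those of low genes come out too small, and were tested with limma over the 10555 genes that averaged 1 TPM or more. A gene was called at a Benjamini-Hochberg adjusted p under 0.05, and 5 of the 7 genes entered the test. Zc3h12a entered only through SAP, so its difference is partly built into the choice of tested genes. Zc3h12b and Zc3h12d stayed below the filter.

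Across the series, the 2 contrasts with SAP moved most of the transcriptome. In SAP against Con 74% of genes tested were called, 44.2% higher and 29.8% lower, with a median log2 difference of 0.21 over all genes. SAP against AP gave 72.1%, 41% higher and 31% lower (median 0.13). Only 5.48% were called in AP against Con, 4.35% higher and 1.13% lower (median 0.06); these 459 higher and 119 lower genes became 388 and 265 after quantile normalization and 194 and 215 after rescaling without the 50 most abundant genes. All 8 hepatocyte markers averaged at least 1 TPM in every group. In SAP against Con 5 of them fell, among them Cps1 (-1.38), Fah (-1.24) and Ttr (-1.07 on the log2 scale), 1 rose (Hnf4a) and 2, Alb and Apoa1, did not pass. Mitochondrially encoded transcripts took 12.5 to 22.2% of TPM in Con, 7.81 to 13.7% in AP and 2.80 to 6.26% in SAP. An earlier look at all genes of these data separated SAP 21, 22, 24 and 25 from SAP 26 to 29, and AP 11, 12, 13 and 16 from AP 15, 17, 18 and 19, for which the labels give no reason. The AP and SAP contrasts with Con share the same controls.

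Zfp36, which encodes tristetraprolin, rose in SAP. Its level was 14.93, 14.68, 12.57, 14.36, 8.69, 7.50, 8.28 and 9.62 TPM in Con 1, 3, 5, 6, 7, 8, 9 and 10. The AP libraries 11, 12, 13, 15, 16, 17, 18 and 19 held 8.15, 10.51, 9.08, 8.15, 6.17, 9.13, 3.40 and 7.18 TPM. The SAP libraries 21, 22, 24, 25, 26, 27, 28 and 29 held 39.35, 50.82, 17.35, 24.82, 25.60, 17.59, 32.22 and 21.31 TPM. Every SAP library stood above every control and every AP library, whereas Con and AP overlapped. The mean was 11.3 ± 3.13 TPM in Con, 7.72 ± 2.18 in AP and 28.6 ± 11.6 in SAP (SD, n = 8). The log2 difference of SAP from Con was 1.22 (SE 0.22, limma adjusted p = 1.7e-05), and that of SAP from AP was 1.73 (adjusted p = 1.08e-07). In AP the mean lay below the controls by -0.51 on the log2 scale (95% interval -0.95 to -0.06), which did not pass (limma adjusted p = 0.168).

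Zfp36l1, the paralog best known in liver for bile acid control, stood level with Zfp36 in controls and rose in SAP. Con libraries ran from 8.16 to 13.43 TPM (median 10.2), AP libraries from 7.24 to 15.45 (median 11.3) and SAP libraries from 17.55 to 48.06 (median 25.8). The lowest SAP library lay above the highest Con and AP libraries. Means were 10.2 ± 1.64, 11.4 ± 2.43 and 28.9 ± 11.4 TPM (SD, n = 8). SAP exceeded Con by 1.34 on the log2 scale (SE 0.18, limma adjusted p = 2.87e-07) and AP by 1.21 (adjusted p = 1.55e-06). AP and Con differed by 0.13 (95% interval -0.24 to 0.50, limma adjusted p = 0.75). Much of its sequence is shared with a gene on the opposite strand: 51.3% of its 50-base windows also lie in Gm26669, which was listed at 0 TPM in 22 of 24 libraries and reached at most 0.14. No source used here gives the strand setting of the authors' counting, so the split of reads between the 2 genes is uncertain.

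Zfp36l2 encodes the family member known for roles in lymphocyte and blood cell development, and it was the lowest of the 3 in every group. Con libraries held 0.67 to 3.85 TPM (median 1.77), AP libraries 1.19 to 1.97 (median 1.69) and SAP libraries 3.62 to 22.58 (median 9.52). SAP 27, the lowest SAP library at 3.62 TPM, fell just under Con 6 at 3.85, and the other 7 SAP libraries stood above all controls. Group means were 1.79 ± 0.934, 1.62 ± 0.237 and 11.1 ± 6.91 TPM (SD, n = 8). The difference of SAP from Con was 1.95 on the log2 scale (SE 0.27, limma adjusted p = 4.09e-07), and of SAP from AP 1.99 (adjusted p = 3.43e-07), with all 8 SAP libraries above all AP libraries. AP minus Con was -0.04 (95% interval -0.59 to 0.51, limma adjusted p = 0.965).

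**Figure D1:**
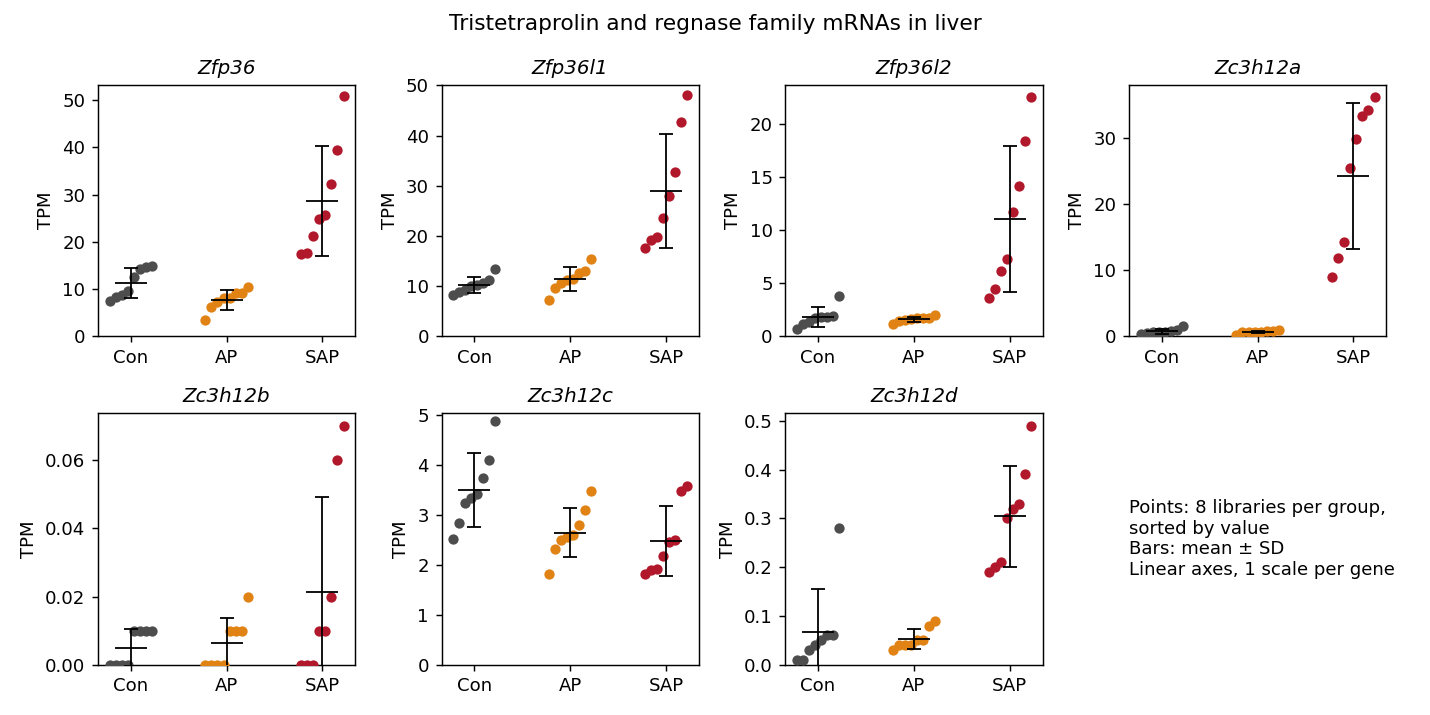
TPM of the 7 genes in each library (points, sorted by value within a group) for Con, AP and SAP, with the mean and SD as bars, on linear axes with 1 scale per gene. Zfp36, Zfp36l1 and Zc3h12a have every SAP library above every Con and AP library, Zc3h12c has its highest value, 4.88 TPM, in Con, and Zc3h12b stays at or under 0.07 TPM.

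Summed over the 3 genes, tristetraprolin family transcript was 23.4 ± 3.66 TPM in Con, 20.8 ± 4.47 in AP and 68.6 ± 26.0 in SAP (SD, n = 8). The makeup of the sum also differed in its values. Zfp36 made up 48.0 ± 8.30% of it in Con, 36.7 ± 5.00% in AP and 42.5 ± 8.18% in SAP. Zfp36l1 made up 44.4 ± 7.83%, 55.3 ± 4.56% and 42.6 ± 6.14%, so it was the larger of the pair on average in AP. Zfp36l2 supplied 7.59 ± 3.31% in Con, 7.98 ± 1.25% in AP and 14.9 ± 4.75% in SAP. These shares were not tested, and the ranges of Zfp36l2 overlap between Con (3.13 to 13.62%) and SAP (8.83 to 23.65%).

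Zc3h12a, the gene of regnase-1, showed the largest difference of the 7. Con libraries 1, 3, 5, 6, 7, 8, 9 and 10 held 0.90, 1.57, 0.48, 0.83, 0.60, 0.64, 0.73 and 0.36 TPM. AP libraries 11, 12, 13, 15, 16, 17, 18 and 19 held 0.91, 0.61, 0.80, 0.68, 0.74, 0.83, 0.27 and 0.60 TPM. SAP libraries 21, 22, 24, 25, 26, 27, 28 and 29 held 36.28, 29.95, 34.28, 33.35, 14.23, 9.02, 25.48 and 11.90 TPM. The lowest SAP value, 9.02, stood well above the highest value of the other groups, 1.57 in Con 3. Means were 0.764 ± 0.370 TPM in Con, 0.680 ± 0.197 in AP and 24.3 ± 11.0 in SAP (SD, n = 8), and the ratio of the SAP and Con means was 31.8. The log2 difference of SAP from Con was 3.72 (SE 0.23, limma adjusted p = 2.52e-13), the 89th highest of 10555 genes, and that of SAP from AP was 3.77 (adjusted p = 2.01e-13). With a pseudocount of 0.1 TPM the difference from Con became 4.76. AP minus Con was -0.06 (95% interval -0.52 to 0.41, limma adjusted p = 0.931).

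Zc3h12c, which encodes regnase-3, a relative known from macrophages, went the other way. Its libraries ran from 2.51 to 4.88 TPM in Con (median 3.37), from 1.82 to 3.47 in AP (median 2.58) and from 1.81 to 3.57 in SAP (median 2.32). Of the 8 SAP libraries, 6 lay below all controls, while SAP 24 at 3.48 and SAP 29 at 3.57 lay within the control range. Means were 3.50 ± 0.739, 2.64 ± 0.498 and 2.48 ± 0.695 TPM (SD, n = 8). Zc3h12c fell by 0.38 on the log2 scale in SAP against Con (SE 0.13, limma adjusted p = 0.00863). In AP it lay -0.30 from Con (95% interval -0.56 to -0.04), which did not pass (limma adjusted p = 0.161), and SAP and AP differed by -0.08 (adjusted p = 0.578).

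The other regnase genes were close to the bottom of the scale. Zc3h12d, which encodes a regnase known from lymphocytes and macrophages, held 0.01 to 0.28 TPM in Con, 0.03 to 0.09 in AP and 0.19 to 0.49 in SAP. Its means were 0.0675 ± 0.0881, 0.0525 ± 0.0212 and 0.304 ± 0.104 TPM (SD, n = 8), and Con 3 at 0.28 was the only control that reached the SAP range. With no filter on low values it was called higher in SAP than in Con (log2 difference 0.29, limma adjusted p = 1.21e-05), as were 24.9% of the 26977 genes in that fit. Zc3h12b held 0 to 0.01 TPM in Con, 0 to 0.02 in AP and 0 to 0.07 in SAP, and did not pass in the same fit (log2 difference 0.02, limma adjusted p = 0.139).

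Read against the background, none of the 5 tested genes was called in AP against Con, where 5.48% of all genes were. Zfp36 and Zc3h12c had an unadjusted limma p under 0.05 (0.0266 and 0.0245). The share of all genes with an unadjusted p under 0.05 was not counted. In SAP against Con 4 were called higher, where 44.2% of all genes were, and 1 lower. Of the 5, 3 had all SAP libraries above all Con libraries, which 23.2% of genes tested did, and 4 had all SAP above all AP libraries, against 22% of genes. Since Zc3h12a passed the filter only through its SAP level, these counts describe the genes and support nothing beyond them. The order of levels in Con ran from Zfp36 and Zfp36l1, whose means differed by less than their SD, through Zc3h12c, Zfp36l2 and Zc3h12a to Zc3h12d and Zc3h12b. In SAP, Zfp36l1, Zfp36 and Zc3h12a lay within 1 SD of each other, followed by Zfp36l2, Zc3h12c, Zc3h12d and Zc3h12b. The ratio of Zc3h12a to Zc3h12c was 0.106 to 0.625 in the controls, 0.148 to 0.333 in AP and 3.33 to 18.4 in SAP.

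**Figure D2:**
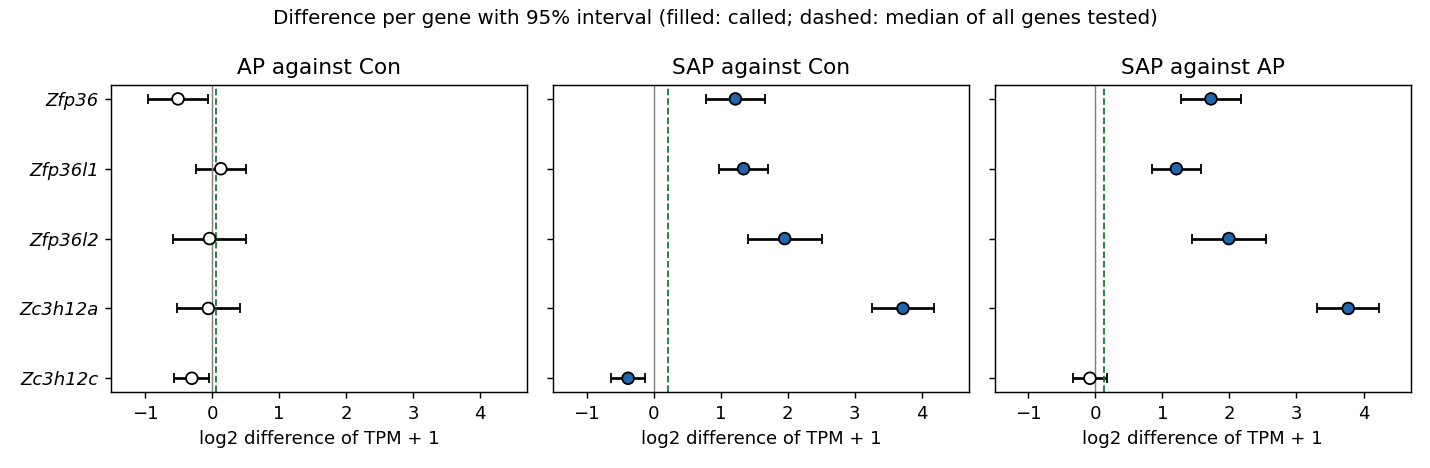
Log2 difference of TPM + 1 with its 95% interval for the 5 tested genes in the 3 comparisons (filled points passed the test, the dashed line is the median of all genes tested, 0.061, 0.212 and 0.129). In SAP, 4 genes lie to the right of that line and Zc3h12c to the left of 0, and no point is filled in AP against Con.

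**Figure D3:**
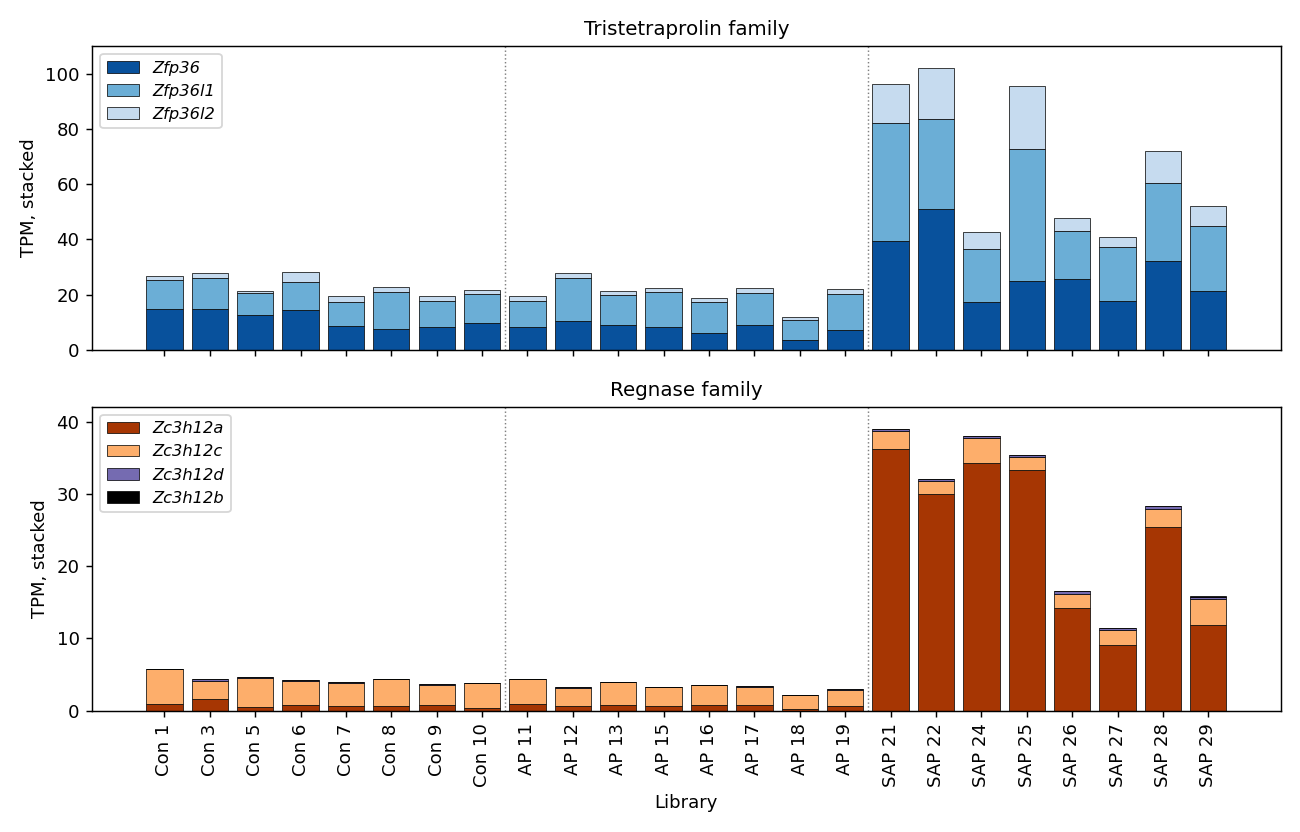
Stacked TPM of the tristetraprolin family (upper panel) and the regnase family (lower panel) in each of the 24 libraries, by library name, on linear axes from 0. The tristetraprolin family sum runs from 41.01 to 101.92 TPM in SAP against 19.31 to 28.26 in Con, and Zc3h12c fills most of the regnase bar in Con and AP where Zc3h12a does in SAP.

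Within SAP the 2 sets of libraries named above differed in Zc3h12a without overlap. How many of all genes tested also separate these sets was not counted. SAP 21, 22, 24 and 25 held 29.95 to 36.28 TPM, and SAP 26 to 29 held 9.02 to 25.48. Zfp36, Zfp36l1 and Zfp36l2 were also higher on average in the first set (33.1, 35.7 and 15.3 TPM against 24.2, 22.2 and 6.77), but their ranges overlapped between the sets. With SAP 26 to 29 alone the log2 difference from Con was 1.04 for Zfp36, 1.04 for Zfp36l1, 1.42 for Zfp36l2 and 3.12 for Zc3h12a. With SAP 21, 22, 24 and 25 alone it was 1.40, 1.64, 2.48 and 4.31, and all of these passed under both. Some other measures also separated the sets without overlap, but the sets were themselves drawn from all genes of these data. Marker sums of neutrophils, Kupffer cells, T and NK cells, stellate cells, hepatocytes and exocrine pancreas overlapped between the sets. The mitochondrial share overlapped as well. Genes above 0 numbered 17140 to 17385 in the first set and 18180 to 18565 in the second. Summed markers of sinusoidal endothelium were 17.1 to 33.2 and 44.4 to 58.5 TPM, of monocytes 376 to 440.17 and 546 to 666 TPM, and of B cells, near the bottom of the scale, 0.03 to 0.12 and 0.20 to 0.36 TPM. The endothelial markers moved both ways in SAP against Con. Of 6 tested, 2 rose (Stab2 and Lyve1), 2 fell (Stab1 and Clec4g) and 2 did not pass.

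Neutrophil markers moved with the SAP group as a list. The 10 neutrophil markers summed to 2.71 to 28.57 TPM in Con, 3.18 to 7.58 in AP and 128 to 360.01 in SAP, and 5 of the 10 averaged at least 1 TPM in SAP against 2 in Con. All 4 that were tested rose, where 44.2% of all genes tested did, but Retnlg and Ngp entered the test through SAP alone. Most of the SAP sum was S100a9 and S100a8, with means of 134 and 49.8 TPM. The 7 monocyte markers summed to 64.4 to 182 TPM in Con, 92.1 to 187 in AP and 376 to 666 in SAP. Most of that sum was Fn1, which hepatocytes also make and which went from 77.2 TPM in Con to 464 in SAP. Of 4 tested monocyte markers Fn1 rose, F13a1 fell (-0.97) and Ly6c2 and Plac8 did not pass, and Ccr2 held 0.168 TPM in Con and 0.0725 in SAP. Kupffer cell markers fell in 6 of 8 cases in SAP against Con, where 29.8% of all genes tested fell, and rose in 1. Their sum was 197 ± 104 TPM in Con and 128 ± 35.5 in SAP. No T, NK or B cell marker averaged 1 TPM in any group, and their sums were 2.92 and 0.575 TPM in Con and 1.45 and 0.179 in SAP. The part of these cells in the levels above was not tested, and in bulk liver fewer cells of a type and less RNA per cell cannot be told apart. Within SAP the neutrophil sum was highest in SAP 27, at 360.01 TPM, where Zc3h12a and Zfp36l2 were at their SAP minimum (9.02 and 3.62 TPM). It was next highest in SAP 22, at 261.55 TPM, where Zfp36 was at its SAP maximum of 50.82 TPM and Zfp36l2 stood at 18.40. It was lowest in SAP 24, at 128 TPM, where Zfp36 was at its SAP minimum of 17.35 TPM, Zfp36l1 stood at 19.27 and Zfp36l2 at 6.20, while Zc3h12a stood at 34.28. None of the listed markers was at 0 in all libraries of a group except 1 of 7 exocrine pancreas markers in SAP.

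Proximal promoter sequence was available in RefSeq (GRCm38.p6, 250 bases before to 50 after the start) for 6 of the 7 genes, all but Zfp36l2. It was searched on both strands for the EGR motif GCGNGGGCG, the STAT motif TTCNNNGAA, the AP-1 motif TGANTCA, the CArG box of serum response factor and the kappa-B motif. Zfp36 was the member with the most kinds of match, and the 130 bases before its start, chr7:28379229-28379358 on the minus strand, hold an EGR motif, a CArG box and a STAT motif, in that order and in capitals.
Zfp36: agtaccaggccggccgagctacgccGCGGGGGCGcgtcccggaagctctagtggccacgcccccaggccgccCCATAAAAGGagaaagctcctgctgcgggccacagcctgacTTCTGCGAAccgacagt

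Of 32544 promoters of the same length 5.60% hold the EGR motif, 1.64% the CArG box, 8.33% the STAT motif, 7.79% the AP-1 motif and 8.49% the kappa-B motif. Zfp36l1 holds 1 AP-1 motif, 1 of the 2 Zc3h12c promoters holds a kappa-B motif, and the windows of Zc3h12a, Zc3h12b and Zc3h12d hold none of the 5. A match here is a run of letters and not a bound site. A gene on the opposite strand, Gm44710, overlaps Zfp36 and shares 2.22% of its windows. That gene held 0.42 to 3.23 TPM, 0.909 on average in Con and 2.41 in SAP.

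The genes that varied most like each member between libraries of the same group were found from the correlation of deviations from group means over 24 libraries. For Zfp36 they were Bcl10 (r = 0.874), a scaffold of NF-kappa-B signalling, Otud5 (0.833) and Junb (0.825), an AP-1 subunit. Zfp36l1 was closest to the transcription factor Bhlhe40 (0.832), Btg2 (0.825), an antiproliferative partner of CCR4-NOT, and the kinase Sik1 (0.812). Zfp36l2 was closest to Aff1 (0.919), the clock repressor Cry2 (0.914) and the kinase Dyrk1a (0.899), and Zc3h12a to Sowahc (0.915), Plscr1 (0.914) and Klf3 (0.896). The likeness of Zc3h12c was looser, with Hip1 (0.624), Rpl27-ps3 (0.61) and Atxn7 (0.592). Among the members themselves r ran from -0.264 for Zfp36l2 and Zc3h12c to 0.747 for Zfp36l1 and Zfp36l2. The SAP libraries spread most and include the 2 sets above, and all values share the TPM scale of their library.

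The shares of all tested genes that rose and fell in SAP against Con, 44.2% and 29.8%, stand as background for each list that follows. For AP against Con these shares were 4.35% and 1.13%. In each list except the exosome, 1 or more genes (such as Btg2, Arid5a, Traf6, Ier3, Egr1 and Cxcl3) averaged under 1 TPM in both Con and AP and entered the test through SAP alone, so counts are also given for genes with at least 1 TPM in controls, of which 40.2% rose and 32.5% fell. Of 17 tested genes of the CCR4-NOT and PAN complexes and their partners, 12 rose, 1 fell and 4 did not pass against Con (11 and 1 of the 16 with at least 1 TPM in controls), with a median log2 difference of 0.71 beside 0.21 for all genes. The scaffold Cnot1 went from 1.76 ± 0.510 to 6.56 ± 2.85 TPM (log2 difference 1.38, SE 0.19, limma adjusted p = 4.69e-07). The deadenylase Cnot7 rose by 0.71 (adjusted p = 8.87e-06) and Cnot11 by 0.83 (adjusted p = 7.73e-09). Btg2, which stimulates deadenylation, entered the test through SAP and went from 0.580 ± 0.183 to 21.9 ± 18.3 TPM (3.44, adjusted p = 1.23e-09). Cnot8, a deadenylase closely related to Cnot7, was the gene that fell, from 17.8 ± 2.43 to 8.71 ± 2.34 TPM (-0.97, adjusted p = 2.9e-07). In AP, 1 of the 17 was called: Pan3, a subunit of the PAN deadenylase, fell from 5.10 ± 1.14 to 3.19 ± 0.888 TPM (-0.55, limma adjusted p = 0.023).

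Of 18 tested decapping and 5′ decay genes 11 rose, 5 fell and 2 did not pass in SAP against Con (median log2 difference 0.75), and 10 rose and 5 fell of the 17 with at least 1 TPM in controls. The helicase Ddx6 rose by 1.20 (limma adjusted p = 5.72e-09) and the decapping scaffold Edc4 by 1.06 (adjusted p = 1.24e-06). Lsm7, of the ring that binds deadenylated ends, fell from 93.5 ± 10.7 to 29.4 ± 7.97 TPM (-1.68, adjusted p = 7.04e-11). Upf1, the helicase that works with regnase-1, fell from 14.2 ± 1.94 to 6.42 ± 2.17 TPM (-1.07, limma adjusted p = 1.63e-07). Lsm6 rose in AP, from 31.1 ± 5.11 to 43.4 ± 4.29 TPM (0.48, adjusted p = 0.0282), and fell in SAP by -0.29 from Con (adjusted p = 0.0426).

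Of 15 tested genes of the RNA exosome, which degrades messages from the 3′ end, and of the SKI complex, 7 rose, 4 fell and 4 did not pass (median log2 difference 0.11, below that of all genes), shares near those of all genes. Exosc9 rose by 1.52 (limma adjusted p = 6.29e-09), the catalytic subunit Dis3 by 1.20 (adjusted p = 1.5e-07) and Exosc2 by 1.01 (adjusted p = 1.5e-06). Exosc3 rose in both contrasts with Con, from 5.16 ± 1.30 to 7.59 ± 1.66 TPM in AP (0.48, limma adjusted p = 0.036) and 14.4 ± 2.06 in SAP (1.33, adjusted p = 2.49e-09). Exosc5 rose in AP (0.59, adjusted p = 0.0155) and did not pass in SAP (-0.17, adjusted p = 0.25).

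Among 10 tested proteins that bind 3′ untranslated regions beside these families, 6 rose and none fell in SAP against Con, with 4 not called (median log2 difference 0.73). Of the 9 with at least 1 TPM in controls 5 rose. Arid5a, which protects messages from regnase-1, entered the test through SAP and went from 0.620 ± 0.337 TPM in Con and 0.416 ± 0.196 in AP to 21.9 ± 6.62 in SAP (3.79, SE 0.17, limma adjusted p = 8.69e-16). Hnrnpd, the AU-rich binding protein AUF1, rose from 13.7 ± 2.95 to 49.9 ± 10.2 TPM (1.80, adjusted p = 2.64e-11), and Khsrp, another promoter of decay, by 0.99 (adjusted p = 6.26e-06). Ybx1 rose in AP (0.68, limma adjusted p = 0.0348) and in SAP (1.90, adjusted p = 1.89e-09). Elavl1, the stabilising protein HuR, held 7.33 ± 1.34 TPM in Con and 7.22 ± 1.59 in SAP (-0.03, adjusted p = 0.86). Rc3h1, the roquin that shares targets with regnase-1, stayed below the filter at 0.861 ± 0.517, 0.731 ± 0.910 and 0.724 ± 0.195 TPM.

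The next list holds 20 tested genes for enzymes and signalling proteins that act on or with the 2 families. In SAP against Con 15 rose, 2 fell and 3 did not pass (median log2 difference 1.10). Of the 19 with at least 1 TPM in controls, 14 rose and 2 fell. Mapk14, the kinase p38-alpha, rose by 1.18 (limma adjusted p = 2.02e-06). Mapkapk2, the p38-dependent kinase that phosphorylates and stabilises tristetraprolin, went from 10.5 ± 2.37 to 44.2 ± 15.8 TPM (1.92, adjusted p = 4.3e-10). Opposing genes rose as well: Dusp1, the phosphatase that switches p38 off, went from 3.996 ± 1.24 to 22.4 ± 11.3 TPM (2.12, adjusted p = 5.17e-09). Ppp2cb, a catalytic subunit of phosphatase 2A, which dephosphorylates tristetraprolin, went from 2.71 ± 0.852 to 25.5 ± 6.16 TPM (2.84, adjusted p = 8.51e-13).

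Among signalling genes linked to regnase-1, Bcl10 rose by 1.99 (limma adjusted p = 2.54e-12) and Traf6 by 1.38 (adjusted p = 1e-10). Usp10, a deubiquitinase, fell from 45.8 ± 7.97 to 15.1 ± 3.69 TPM (-1.55, limma adjusted p = 1.91e-10). N4bp1, an RNase of the same kind that restrains cytokines, rose by 0.56 (limma adjusted p = 0.000508). Malt1, the protease that cleaves regnase-1, stayed below the filter at 0.223 ± 0.106 TPM in Con and 0.870 ± 0.249 in SAP. None of the 20 was called in AP against Con, where only 5.48% of all genes tested were.

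Known targets of the tristetraprolin family, members left out, rose in SAP in 16 of 20 tested cases, fell in 3 and did not pass in 1 (median log2 difference 2.06). Among the 15 with at least 1 TPM in controls 11 rose and 3 fell. Ier3, an early response gene, went from 0.929 ± 0.603 to 131 ± 30.1 TPM (6.12, SE 0.18, limma adjusted p = 2.82e-19). Cdkn1a, the cell cycle inhibitor p21, went from 1.96 ± 2.19 to 100.4 ± 38.9 TPM (5.24, adjusted p = 2.6e-14), and Hif1a from 1.21 ± 0.127 to 26.9 ± 9.51 TPM (3.58, adjusted p = 1.02e-15). Tnf and Il6, cytokine messages of the list, stayed below the filter: Tnf at 0.433 ± 0.446 TPM in Con, 0.321 ± 0.164 in AP and 0.515 ± 0.247 in SAP, and Il6 at 0.0325 ± 0.0515, 0.0263 ± 0.0374 and 1.81 ± 1.50 TPM.

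Metabolic and growth factor targets of the family moved in both directions. Fgf21, the fasting hormone, went from 2.03 ± 1.92 TPM in Con to 28.1 ± 13.5 in SAP (3.26, limma adjusted p = 3.93e-07), and AP lay between at 8.69 ± 9.87 TPM without passing (adjusted p = 0.0646). Cyp7a1, the rate-limiting enzyme of bile acid synthesis, went from 7.75 ± 4.77 TPM in Con and 11.8 ± 3.31 in AP to at most 0.22 TPM in any SAP library (-2.90, limma adjusted p = 2.86e-11). Vegfa, an angiogenic growth factor, fell from 18.7 ± 5.96 to 7.46 ± 2.16 TPM (-1.20, limma adjusted p = 1.66e-06). The sites printed above for Ier3 and Fgf21, which rose, and for Cyp7a1, which fell, were chosen to hold the heptamer. Targets of this list and of regnase-1, members left out, were also split by heptamer number. Of 9 tested targets with no heptamer, 8 rose and 1 fell in SAP against Con. The 1 that fell was Vegfa, whose chosen transcript gave only 27 bases to search, so its place in this class is uncertain. Of 17 with at least 1, 14 rose, 2 fell and 1 did not pass.

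Of 19 known regnase-1 targets other than Zc3h12a, 10 were tested. All 10 rose in SAP against Con (median log2 difference 3.67), as did all 6 with at least 1 TPM in controls. Below the filter, Il12b, Nfkbid, Tnfrsf4 and Icos had lower means in SAP than in Con, and Il6, Il2, Ptgs2, Rel and Ctla4 higher. Il1b, Cxcl1, Cxcl2 and Ier3 were tested in both target lists. Together the lists hold 26 tested genes, of which 22 rose, 3 fell and 1 did not pass. Lcn2, lipocalin 2, went from 654 ± 959 TPM in Con and 614 ± 238 in AP to 14407 ± 1712 in SAP (5.53, SE 0.51, limma adjusted p = 5.28e-10). Con 3 alone held 2872.69 TPM of Lcn2, and the other 7 controls averaged 338 ± 369 TPM. Nfkbiz, the co-activator of Lcn2 and Il6, went from 1.50 ± 0.700 to 10.7 ± 4.45 TPM (2.19, adjusted p = 6.13e-10). Egr1 rose by 4.16 (adjusted p = 1.18e-15) and the chemokine Cxcl3 by 3.18 (adjusted p = 1.59e-11). Tfrc, the transferrin receptor, rose least of those named, from 2.77 ± 0.846 to 4.86 ± 2.22 TPM (0.58, limma adjusted p = 0.0229). No target of either list was called in AP against Con, where only 5.48% of all genes tested were. TPM measures the amount of a message and not its decay, so its half-life was not measured here.

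**Figure D4:**
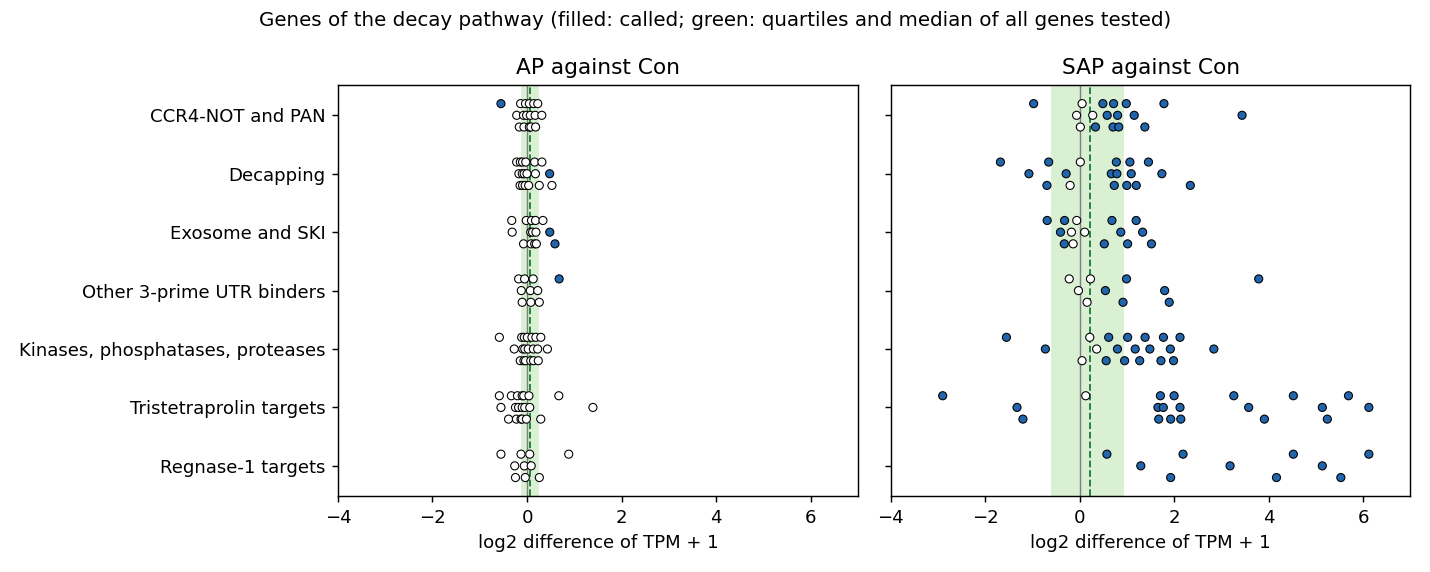
Log2 difference of TPM + 1 of each tested gene, members left out (points, filled where called), in 7 lists of the decay pathway for AP against Con and SAP against Con. The quartiles and the median of all genes tested are drawn as a green band and dashed line. In SAP the target lists reach 6.12 (Ier3) and -2.90 (Cyp7a1), and in AP most points lie near 0.

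Changes by number of heptamers were described for the 9368 tested genes with an untranslated region, in classes chosen after their values were seen. In SAP against Con 43.9% of genes with no heptamer rose and 30.5% fell, whereas 54.2% rose and 21.3% fell with 1 or 2, and 56.0% rose and 20.2% fell with 3 or more. Untranslated regions were longer in the later classes, with medians of 680, 1815 and 3158 bases. Among regions of 1500 to 3000 bases, 48.9%, 54.6% and 56.9% rose and 26.4%, 20.1% and 15.3% fell. The last of these classes holds 72 genes. The tested genes include those that entered through SAP alone, so the shares that rose are partly built in by the filter. The classes were not taken again for genes with at least 1 TPM in controls.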

How the data were processed

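The authors deposited 1 table of 24 liver libraries; per the labels' protocols, RNA was taken with Trizol and libraries followed standard Illumina protocols. The deposited values are TPM by their form: each library sums to 986423 to 993642, and among genes at 0 in at least 12 libraries the smallest value above 0 had a median of 0.28 for transcripts up to 500 bases and 0.01 for those over 4000. The submitters' processing notes name edgeR without a role, and no source used here gives aligner, build or strand. Depth is unknown, so no counting intervals are given.

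Values were tested as log2(TPM + 1) with limma 3.58.1 (intensity trend) in R 4.3.3, in 1 fit over the 3 groups of 8 (21 residual degrees of freedom) on genes averaging 1 TPM or more, after tests on simulated data. Adjusted p-values are Benjamini-Hochberg over all genes tested in a comparison, two-sided. Members, lists and library sets were chosen with earlier results of these data known. From each list the text names the 4 tested genes with the smallest p over the 3 groups, any called in AP, and a fixed set of well-known genes, of which 1 is not reported here. Alternatives were 2 scalings, 2 filters, a pseudocount of 0.1, limma without trend or with array weights, fits of 2 groups, and fits without single libraries or sets.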

Additional observations from a re-analysis of the deposited data

Results flagged for a closer look

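Of the 21 sets of 8 values (7 genes in 3 groups), 3 held a library far from the others by Dixon's ratio, a test that chance trips in about 1 of 20 sets. All 3 were controls. Zfp36l2 stood at 3.85 TPM in Con 6, with the next control at 1.91, and without Con 6 its difference of SAP from Con was 2.08 on the log2 scale. In Con 3, Zc3h12a stood at 1.57 TPM (next control 0.9) and Zc3h12d at 0.28 TPM (next control 0.06). Con 3 also had the highest sums of the controls for neutrophil (28.57 TPM), Kupffer cell (413.74 TPM) and T and NK cell markers (7.65 TPM), and the part of those cells in its values was not tested.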

How the results depend on the processing

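No paired analysis was possible because the groups share no replicate numbers. Under each of 37 alternatives per comparison, no tested member was called in AP against Con, 5 were in SAP against Con and 4 in SAP against AP. Zc3h12a was not tested in the fit of AP and Con alone, where its mean missed the filter, so it has 36 alternatives in that comparison. The adjusted p of Zc3h12c in SAP against Con ranged from 0.000811 to 0.0317. Some differences that were not called changed sign: Zc3h12c in SAP against AP became 0.0179 after rescaling and 0.0539 without AP 11, 12, 13 and 16. In AP against Con, Zfp36l2 became 0.0367 with array weights and ranged from -0.134 to 0.0858 with 1 library left out. Zc3h12a became 0.0128 with array weights, 0.023 without AP 15, 17, 18 and 19, 0.0391 without Con 3 and 9, and -0.105 to 0.0261 with 1 library left out. Among these single libraries, the sign changed for Zfp36l2 without Con 6 (0.0858). For Zc3h12a it changed without Con 3 (0.0261) and without AP 18 (0.0012).

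The number of genes called in AP against Con, 578, became 222 with no filter, 1458 with array weights, 877 without SAP 26 to 29, 1229 without AP 11, 12, 13 and 16, 11 without AP 15, 17, 18 and 19, and 913 without Con 3 and 9. It ranged from 179 (without Con 7) to 840 (without Con 3) with 1 library left out, and leaving out Con 1, Con 10, AP 15, AP 17, AP 18 or AP 19 gave 209, 225, 184, 211, 352 and 238. The cause was not tested. Pan3, Lsm6, Exosc3, Exosc5 and Ybx1, named above as called in AP against Con, were not followed under these alternatives. Rescaling moved the median log2 of all genes to -0.06 in AP against Con and 0.25 in SAP against AP, and quantile normalization to 0.03 in SAP against Con and 0.01 in SAP against AP. Quantile normalization gave Zc3h12c -0.61 in SAP against Con. TPM keeps no depth, so how far counting limits Zc3h12b and Zc3h12d is unknown.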
